A study of Mus musculus with 9 samples.

Results

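The cytosolic ribosomal protein genes and their paralogs were taken as the protein-coding genes whose symbol begins with Rpl or Rps, leaving out the S6 kinases (Rps6k) and symbols marked as pseudogenes, and 82 of the 38674 genes in the table met this rule. RNA came from the testes of male C57BL/6 mice, of which 3 were wild type (WT, Pfn3+/+), 3 heterozygous (Het, Pfn3+/-) and 3 homozygous for the mutant allele (KO, Pfn3-/-). Pfn3 encodes the testis-specific actin-binding protein profilin 3, and its alleles were made with CRISPR/Cas9 in lines that carry different deletions. The labels do not say which line or what age was sequenced, or whether the animals were littermates. Whole testis was used after the tunica albuginea was removed, so a value averages over all germ cells and somatic cells of the organ, and fewer cells of a type cannot be told apart from less RNA per cell. Of the 82 genes, 41 encode proteins of the large (60S) subunit, 30 of the small (40S) subunit, 3 the acidic stalk, and 6 are paralogs of one of these. The last 2, Rps19bp1 and Rpl7l1, carry the prefix but are not structural ribosomal proteins: Rps19bp1 is a binding partner of Rps19, and Rpl7l1 is a relative of Rpl7 that acts in ribosome assembly. Rpl13a, Rpl24, Rps13, Rpl36al and Rps4l were not analysed here.

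A ribosome holds 1 copy of nearly every ribosomal protein, so the genes are usually expressed together, and their mRNAs begin with a C followed by a run of pyrimidines, the terminal oligopyrimidine (TOP) motif, through which mTOR signalling controls their translation. The testis is a special case, because the X chromosome is silenced in spermatocytes during meiosis. Several X-linked ribosomal protein genes have autosomal copies that germ cells use, and Rpl10l, a copy of Rpl10, and Rpl39l, a copy of Rpl39, are the best known of them in the mouse.

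The sequences around the annotated transcription starts of 9 genes are shown because the TOP motif lies there, 3 for genes whose KO values lay below their WT values without passing the test, 4 for the X-linked genes and their autosomal copies, and 2 for a pair of near-identical genes. Each runs from 15 bases before to 15 bases from the RefSeq start (GRCm38.p6) on the gene's strand, and capitals mark a run of at least 6 pyrimidines that begins with C within 5 bases of the start.
Rpl28 (chr7:4792950-4792979, plus strand): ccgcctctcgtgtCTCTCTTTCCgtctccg
Rpl35 (chr2:39005117-39005146, minus strand): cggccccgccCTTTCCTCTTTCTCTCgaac
Rplp2 (chr7:141447636-141447665, plus strand): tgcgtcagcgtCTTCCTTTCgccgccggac
Rpl10 (chrX:74270801-74270830, plus strand): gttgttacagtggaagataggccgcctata
Rpl10l (chr12:66284387-66284416, minus strand): tttggcctccattttgcggctggcggtggg
Rpl39 (chrX:37085208-37085237, minus strand): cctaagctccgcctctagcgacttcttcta
Rpl39l (chr16:10170213-10170242, plus strand): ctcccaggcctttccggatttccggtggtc
Rps27 (chr3:90213634-90213663, minus strand): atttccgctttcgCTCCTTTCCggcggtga
Rps27rt (chr9:114982725-114982754, minus strand): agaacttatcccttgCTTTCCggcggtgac
The marked stretches were 10 bases long in Rpl28, 16 in Rpl35, 9 in Rplp2 and Rps27 and 6 in Rps27rt, counted from their first C inside this limit. Unmarked pyrimidines stand directly before the stretch in Rpl28, Rpl35 and Rplp2. The search, made on the gene's strand, found such a run in 26 of the 62 members that were matched in the RefSeq table (41.9%) and in 3229 of all 27025 genes there (11.9%). Annotated starts can lie some bases away from the start used in testis, and pyrimidine runs that begin farther from the start are left unmarked.

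QuantSeq libraries are primed at the poly(A) tail, so each read marks the 3′ end of 1 transcript and a level does not grow with transcript length. Values per kb of exon, given beside some levels, are therefore lowered by long annotated exons. Values are given as normalized counts, that is, the gene counts of an animal after division by its size factor. The gene counts came from StringTie's quantification of transcripts and are called reads here, although they are not a direct tally of sequenced reads. They summed to between 3375546 and 4287335 per animal. A count of 3, taken as the limit of detection for counting error only, equalled 2.58 to 3.71 normalized counts. The normalized counts of Pfn3 itself were 592, 383 and 373 in WT, 136, 339 and 326 in Het and 74.7, 215 and 279 in KO. It was lower in each KO than in each WT testis, but KO and Het overlapped, and 3′ reads downstream of a deletion do not check a genotype. The paper itself reports the loss of Pfn3 in its deficient mice by qRT-PCR, immunoblot and tissue staining. Spermatid markers were abundant in every library, and the 4 epididymis markers were at 0 in all 9.

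The library of WT replicate 1 stood apart from the rest. In it, 14 of 81 members (17.3%) lay more than 1 log2 unit from the median of the 9 animals, against 0 to 4 members in each other library, and the same held for 27.3% of all genes against 5.93% to 15.1%. Across members, its levels correlated with those of the other animals at r = 0.733 to 0.795 (81 genes on the log2 scale, as a description), while the other libraries correlated with one another at 0.840 to 0.977. It was the lowest of the 9 animals for 19 members and the highest for 24, although Het replicate 3 was the lowest for 20 and WT replicate 2 the highest for 33. It also had the fewest reads, although KO replicate 2 had nearly as few, and the part of depth was not tested. Results that rest on this library are therefore given with and without it. Across members, Het replicate 2 correlated with WT replicates 2 and 3 at 0.9765 and 0.9762 and with KO replicate 1 at 0.9595. With Het replicates 1 and 3 it correlated at 0.8805 and 0.8912. Over all genes these values were 0.9222, 0.9271 and 0.9032 against 0.7984 and 0.8689.

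**Figure D1:**
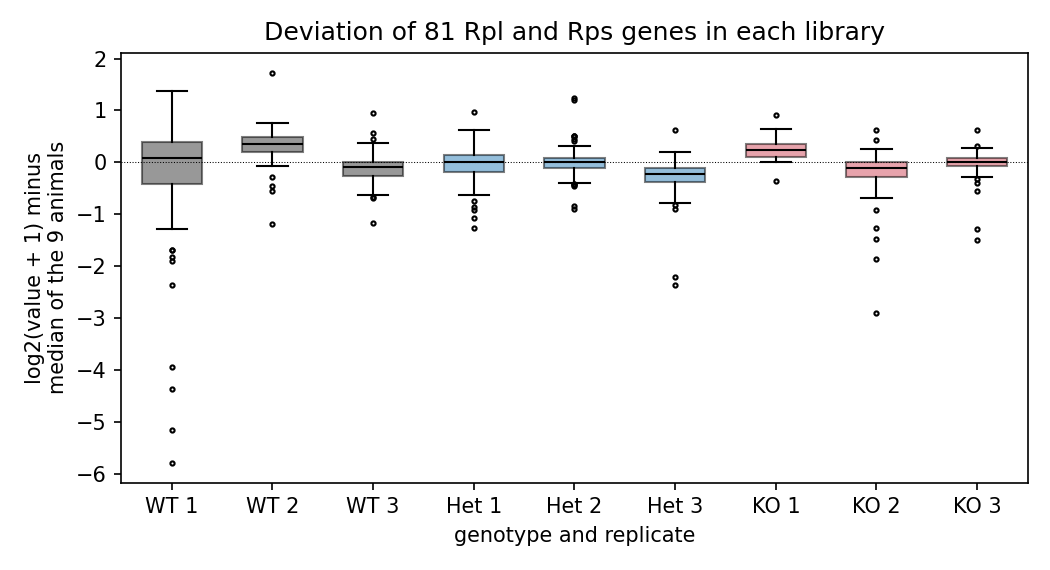
Deviation of 81 Rpl and Rps genes in each library, as log2(value + 1) minus the median of the 9 animals. Boxes span the quartiles with the median as a line, whiskers reach the farthest gene within 1.5 box lengths and circles are genes beyond them; WT replicate 1 has the widest spread (SD 1.27, against 0.191 to 0.473 in the others).

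Reads were found for 81 of the 82 members, and these 81 passed the filter on low values in each comparison. The exception was Rpl3l, the form of Rpl3 known from heart and skeletal muscle, which was at 0 in all 9 animals while Rpl3 averaged 453 normalized counts. The members were among the most abundant mRNAs of the organ: 46 averaged over 1000 normalized counts, 36 were among the top 500 genes and 5 among the top 100. They lay on 19 chromosomes.

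The highest mean belonged to Rpl37, a small zinc-binding protein of the 60S subunit, with 4719 normalized counts (2802 per kb of exon). In single animals Rpl37 ranged from 4078 to 6447. Rps29, a zinc-binding 40S protein, followed with 4089.6 (5901 per kb) and was the steadiest member of all, with 3706, 4222 and 3696 in WT, 4194, 4053 and 4137 in Het and 4445, 4172 and 4182 in KO. Rps20 averaged 4072 (998 per kb), Rps14 3446 (1439.6 per kb) and Rpl32 3397 (3528 per kb). The ranges of these 5 genes overlapped one another. Within single animals Rpl37 was above Rpl32 in every animal, while the order of each other pair changed between animals.

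At the other end, Rpl10 averaged 112 normalized counts (54.5 per kb), Rpl29 122 (108 per kb), Rpl7l1 141 (40.2 per kb), Rps4x 146 (89.4 per kb) and Rps19bp1 152 (141 per kb). Rpl10 and Rps4x are X-linked, and Rpl7l1 and Rps19bp1 are the 2 genes without a structural part in the ribosome. All 4 X-linked members, Rpl10, Rpl36a, Rpl39 and Rps4x, were low. Their means ran from 112 to 297 normalized counts with a median of 210 (134 per kb), while the 70 canonical autosomal members had a median of 1173 (582 per kb) and a range of 122 to 4719.

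Rps4x, a 40S protein, had 171, 135 and 99.4 normalized counts in WT, 193, 135 and 127 in Het and 142, 159.6 and 151 in KO. Rpl36a, of the 60S subunit, had 391, 326 and 206 in WT, 326, 235 and 236 in Het and 318, 348 and 287 in KO. For both genes the 3 genotypes overlapped. Counts of such genes depend on how reads shared with pseudogenes and other copies were assigned. Of the 50-base windows in the last 300 bases of the transcripts, the share found also in another annotated transcript was 100% for Rpl36a, 90.4% for Rpl10, 62.2% for Rps4x and 21.9% for Rpl39. The same share had a median of 51.2% over all 82 members, was above 50% for 43 and was 0 for 12, and 58 members have a pseudogene named after them.

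**Figure D2:**
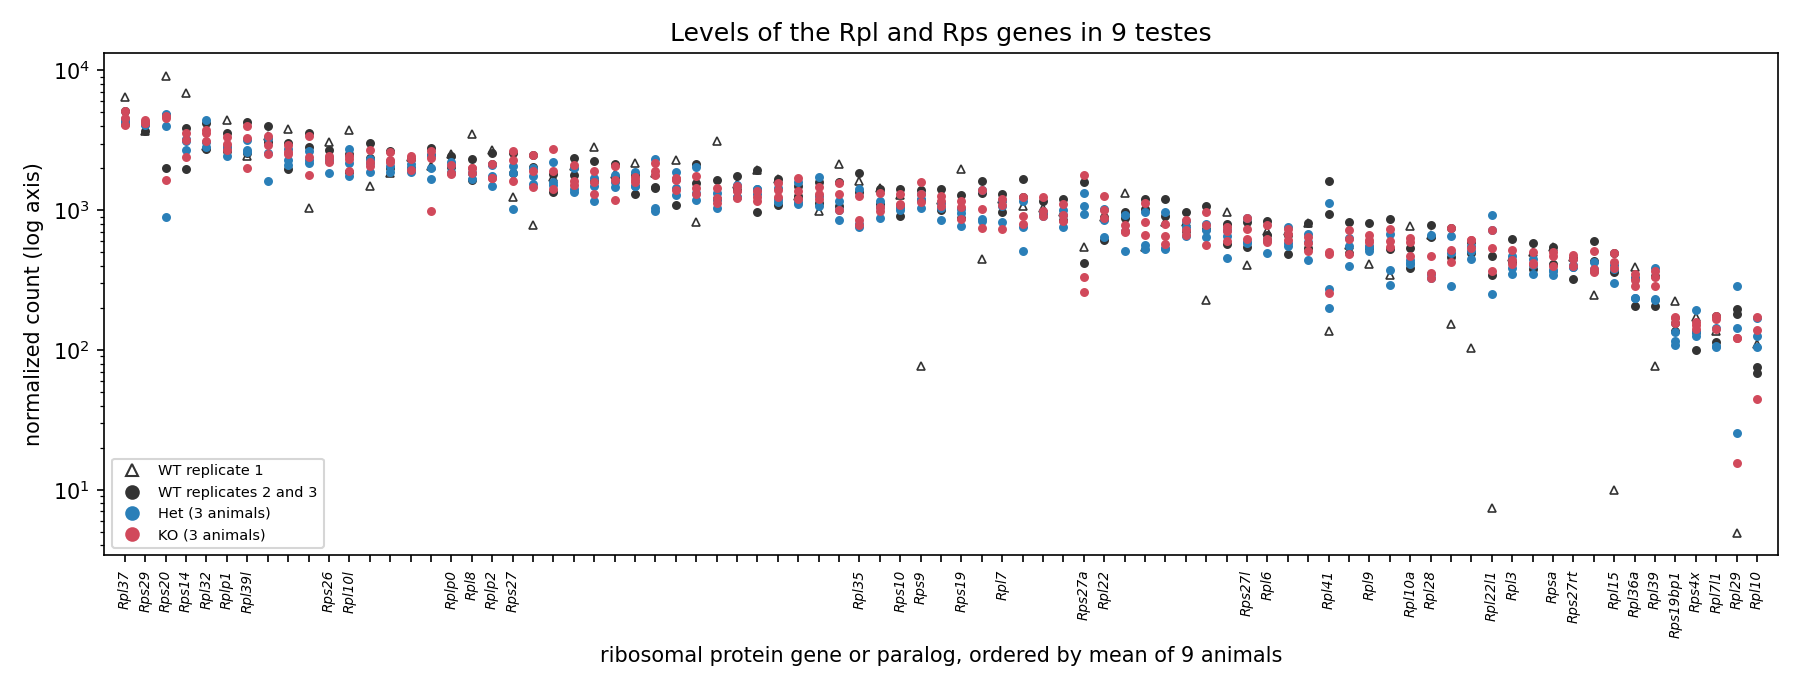
Normalized counts (log axis) of the 81 Rpl and Rps genes with reads, ordered by their mean over 9 animals, with 1 symbol per animal and the names of the genes described in the text. The highest animal is under 2-fold above the lowest for 36 genes, and open triangles below 10 normalized counts mark Rpl22l1, Rpl15 and Rpl29 in WT replicate 1.

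Against this low level of the X-linked genes, their autosomal copies were among the highest members. Rpl10l (chr12:66283379-66284401, minus strand, GRCm38) had 3739, 2503 and 1879 normalized counts in WT, 2754, 1761 and 2161 in Het and 2432, 1906 and 2317 in KO. Rpl10, a 60S protein that is placed late in subunit assembly (chrX:74270812-74273135, plus strand), had 110.2, 75.2 and 68.6 in WT, 169, 104 and 126 in Het and 138, 171 and 44.7 in KO. Every animal thus had more Rpl10l than Rpl10. The ratio of Rpl10l to Rpl10 ran from 11.1 to 51.9 over the 9 animals with a median of 17.6. The ratio of the means was 21.3, or 42.7 per kb of exon, a scale on which the longer annotated exons of Rpl10 raise the ratio. Of the 50-base windows in the 3′ end of Rpl10, 90.4% also occur in other annotated transcripts. Its counts, and thus these ratios, depend on how reads shared with copies were assigned.

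The translated GENCODE coding sequences of Rpl10 and Rpl10l are both 214 residues long and differ at 3 of them (98.6% identity), while the coding bases are 84.7% identical. None of the 251 windows of 50 bases in the 3′ end of Rpl10l was found in Rpl10 or in another annotated transcript. For Rpl10l, KO differed from WT by -0.24 (SE 0.28) on the log2 scale (limma, adjusted p = 0.734), and by 0.02 when WT replicate 1 was left out. No difference was detectable for Rpl10 either, with a log2 difference of 0.30 (SE 0.53, adjusted p = 0.827 by limma).

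Rpl39l (chr16:10170226-10174911, plus strand) had 2424, 4307 and 2558 normalized counts in WT, 3204, 2709 and 2594 in Het and 4006, 1995 and 3296 in KO. Its X-linked parent Rpl39, a very small protein of the 60S exit tunnel (chrX:37082520-37085402, minus strand), had 76.8, 339.6 and 207 in WT, 385, 228 and 232 in Het and 370.2, 288 and 335 in KO. Rpl39l exceeded Rpl39 by 6.92-fold to 31.6-fold, with 12.7-fold as the highest ratio when WT replicate 1 was left out. The median ratio was 11.2, and the ratio of the means per kb of exon was 19.0. Both proteins have 51 residues, 3 of which differ (94.1% identity), and the 3′ end of Rpl39l shared no 50-base window with Rpl39. The genotypes overlapped for both genes, and KO against WT gave a log2 difference of -0.01 (SE 0.34, adjusted p = 0.996 by limma) for Rpl39l. For Rpl39 it was 0.90 (SE 0.53, adjusted p = 0.637 by limma), and 0.31 without WT replicate 1, the animal with the lowest value.

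**Figure D3:**
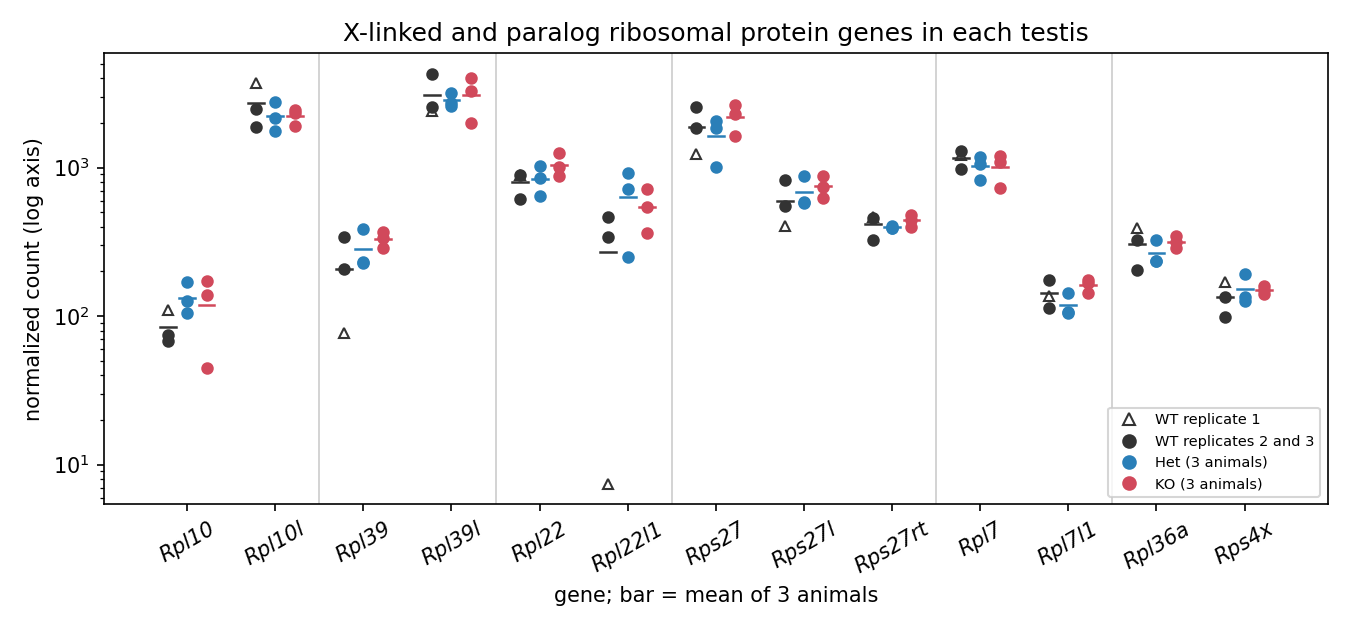
Normalized counts (log axis) of X-linked genes and paralog pairs, 1 symbol per animal, with the mean of each genotype as a bar. Rpl10l and Rpl39l lie at least 6.92-fold above their X-linked parents in each animal, and Rpl22l1 in WT replicate 1 (7.43) lies far below the other 8 animals.

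The other paralogs were not above their parents. Rpl22l1, which can stand in for the 60S protein Rpl22 and shares 70.3% of its residues, had 7.43, 342 and 467 normalized counts in WT, 919, 250.5 and 719.6 in Het and 365, 541 and 719 in KO. Rpl22 had 894, 889 and 614 in WT, 1025, 644 and 852 in Het and 1262, 1004 and 879 in KO. The ratio of Rpl22l1 to Rpl22 was 0.00831 in WT replicate 1 and 0.289 to 0.897 in the other animals. Rpl22l1 had the largest log2 difference of all members between KO and WT, 2.24 (SE 1.52, adjusted p = 0.643 by limma), and it was 0.38 once that animal was left out.

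Rps27 encodes a zinc-finger protein of the 40S subunit and has 2 paralogs. Rps27l, which differs from it at 3 of 84 residues and is known as a target of p53, had 407, 821 and 549 normalized counts in WT, 876, 580.1 and 592 in Het and 882, 626 and 738 in KO. Rps27rt had 466, 457 and 323 in WT, 407, 394 and 391 in Het and 478, 399 and 446 in KO. Rps27 itself had 1243, 2554 and 1839 in WT, 1015, 2064 and 1837 in Het and 2643, 1627 and 2295 in KO. The coding sequences of Rps27rt and Rps27 are 100% identical, and 222 of the 251 windows of 50 bases in the 3′ end of Rps27rt are also in Rps27, so reads of the 2 genes could not be separated with certainty.

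Rpl7l1 is 40.7% identical to Rpl7 and had 137, 176 and 114 normalized counts in WT, 144, 106 and 105 in Het and 176, 142 and 166 in KO, while Rpl7 averaged 1065. The protein of Rpl3l is 76.0% identical to that of Rpl3, which had 461, 625 and 423 in WT, 387, 468 and 347 in Het and 518, 409 and 439.7 in KO. None of these paralogs and parents passed the limma test between KO and WT (adjusted p = 0.637 to 0.996).

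The spread among the 9 animals differed widely between members. The ratio of the highest to the lowest animal had a median of 2.04 over the 81 members (1.71 without WT replicate 1) and was under 2 for 36 members (59 without it). It exceeded 10 for 6 members, Rpl22l1, Rpl29, Rpl15, Rps9, Rpl41 and Rps20, and for 1 of them, Rpl29, also without WT replicate 1. In WT replicate 1, Rpl15 had 9.90 normalized counts against 299 to 496 in the other animals. Rps9, a 40S protein near the mRNA entry, had 76.8 there against 1042 to 1588 elsewhere. These values were low in 1 animal of a group and not in the others.

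A second kind of spread, noticed after the values were seen, had its low values in several libraries and genotypes. Rps20, at the 40S head, had 2008 normalized counts in WT replicate 2, 892 in Het replicate 3 and 1652 in KO replicate 2, and 4018 to 9145 in the 6 other animals, so 1 animal of each genotype was low. Rpl29 had 25.4 in Het replicate 3 and 15.5 in KO replicate 2, 4.95 in WT replicate 1 and 122 to 288 in the 6 others. Rps27a, which encodes ubiquitin fused to a 40S protein, had 545, 1580.2 and 421 in WT, 947, 1338 and 1069 in Het and 1776, 258 and 335 in KO. Rpl41, the smallest ribosomal protein, had 136, 1609 and 938 in WT, 201, 1119 and 274 in Het and 484, 255 and 499 in KO. The low animals differed from gene to gene, and KO replicate 2 was among the lowest 3 animals for each of the 4.

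The members together took 3.00%, 3.26% and 2.56% of all normalized counts in WT, 2.99%, 2.82% and 2.52% in Het and 3.45%, 2.87% and 2.93% in KO. The group means were 2.94% ± 0.35 (SD, n = 3) for WT, 2.78% ± 0.24 for Het and 3.08% ± 0.32 for KO, which overlapped. The sum itself was 119991 ± 16615 normalized counts (SD, n = 3) in WT, 101516 ± 8882 in Het and 109354 ± 16646 in KO. KO was thus above WT as a share of the library and below WT as a sum. Over the 9 animals the sum of 4 elongating spermatid markers, which took more of each library than the members, was 233289 to 249362 in WT, 179063 to 214894 in Het and 123388 to 199672 in KO. All 4 had a lower mean log2 level in KO than in WT, none of them was called, and their part in the shares was not tested.

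The question of the design is whether the level of these mRNAs changed when 1 or both Pfn3 alleles were lost. Each gene was compared with limma on log2(normalized count + 1), over the animals of the 2 genotypes compared, and was called at an adjusted p under 0.05 with a log2 difference over 1.5 either way. No member was called. In KO against WT, 0 of 81 members were called beside 0.0352% of the 14223 genes tested, in Het against WT 0 beside 0.0% of 14216, and in KO against Het 0 beside 0.0558% of 14343. The smallest adjusted p of a member was 0.583, 0.779 and 0.973, respectively. On the reads recovered from the table, edgeR and DESeq2 called no member either, and the smallest adjusted p was 0.594 for edgeR and 0.0963 for DESeq2, both for Rpl28 in KO against WT. With 3 animals a group and a median SE of 0.25 log2 units for the members in KO against WT, modest differences were not detectable.

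In KO against WT, 34 members were higher and 47 lower (58.0%, beside 48.6% of all genes tested). Their median log2 difference was -0.04, beside 0.02 over all genes tested and -0.03 over the 8649 genes that passed a filter at 50. The sign of the members' median depended on single animals (0.06 when WT replicate 2 was left out, 0.02 for KO replicate 2 and -0.20 for WT replicate 3). At an unadjusted p under 0.05, no member was higher beside 3.04% of all genes, and 3 members (3.7%) were lower beside 5.03%. The count of lower members was 7 when WT replicate 3 was left out, 4 for WT replicate 1 or KO replicate 1, and 1 for WT replicate 2, KO replicate 2 or KO replicate 3. The count of higher members was 1 when WT replicate 1, WT replicate 2 or KO replicate 3 was left out. All KO values lay above all WT values for no member, beside 9.41% of all genes, and below them for 5 members (6.17%), beside 10.5%. Each of these shares was below that of all genes, and whether they differ was not tested. A log2 difference over 1 was seen for 3 members, Rpl22l1, Rpl15 and Rps9. The share over all genes was 14.5%. Without WT replicate 1 these differences went from 2.24 to 0.38 for Rpl22l1, from 1.80 to 0.04 for Rpl15 and from 1.40 to 0.05 for Rps9, and 2 other members were past 1, beside 10.5% of all genes. They were Rpl41, which went from -0.58 to -1.63 (limma, unadjusted p = 0.00807, adjusted p = 0.452), and Rpl29, which went from 0.07 to -1.59 (adjusted p = 0.612).

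Rpl28, a 60S protein (chr7:4792874-4795066, plus strand), had 669, 789 and 643 normalized counts in WT, 326, 668 and 351 in Het and 468, 325 and 353 in KO. The KO animals lay below the WT animals, and Het replicate 2 lay with WT while the other 2 Het animals lay with KO. The log2 difference of KO from WT was -0.88 (SE 0.21, unadjusted p = 0.00512, adjusted p = 0.583, limma), the smallest p among the members, and it was -0.91 without WT replicate 1.

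Rpl35 (chr2:39001580-39005624, minus strand), which sits at the exit of the 60S tunnel, had 1611, 1839 and 1349.8 in WT, 756, 1419 and 795 in Het and 1265, 787 and 856 in KO. Again Het replicate 2 was with the WT animals, and its library resembled WT replicates 2 and 3 across members and all genes. The log2 difference of KO from WT was -0.74 (SE 0.24, adjusted p = 0.610, limma), and that of Het from WT was also -0.74 (SE 0.29, adjusted p = 0.779, limma). Of the windows at its 3′ end, 96.0% also occur in other annotated transcripts, so its reads may hold those of copies.

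**Figure D4:**
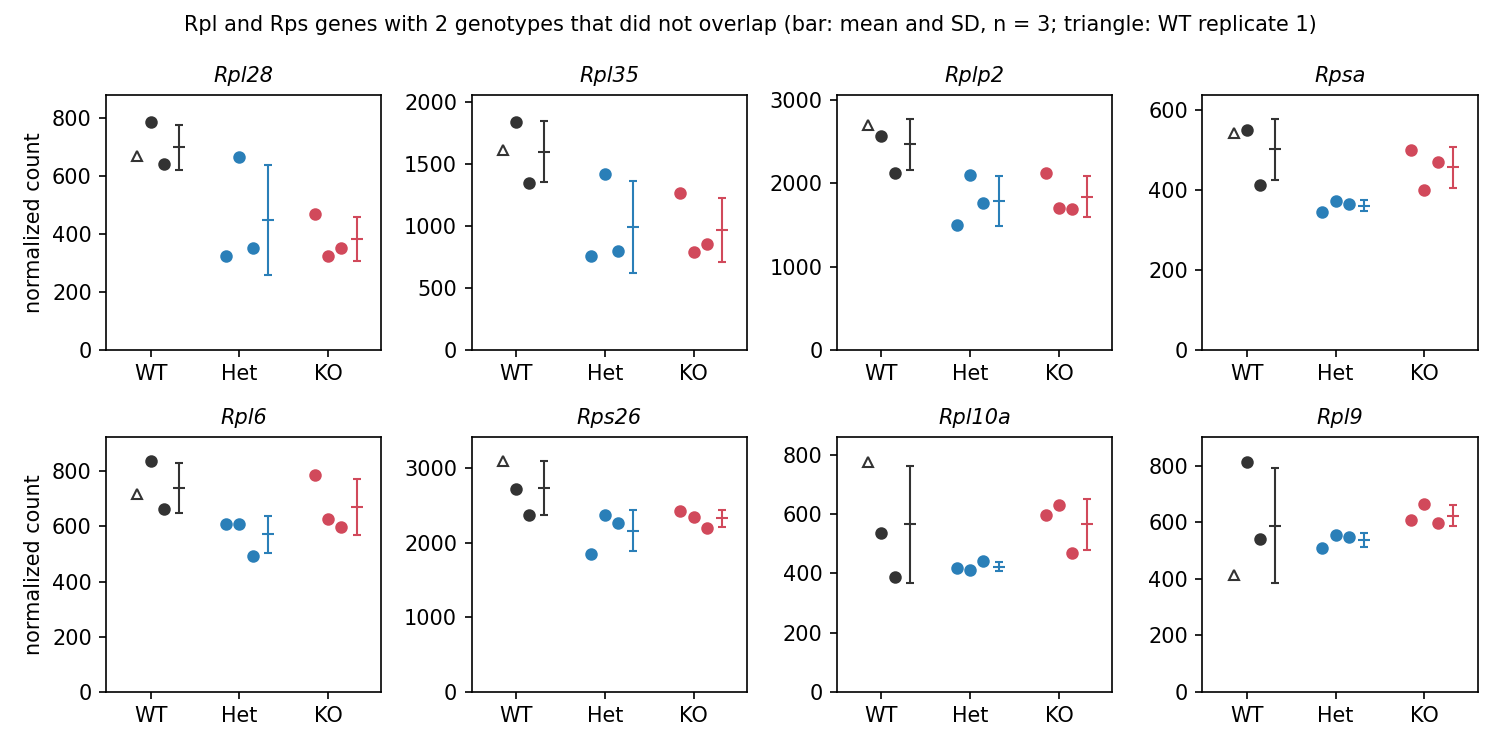
Normalized counts of 8 genes for which at least 1 pair of genotypes did not overlap, 1 point per animal, with mean and SD (n = 3) beside the points and WT replicate 1 as an open triangle. The KO points lie below the WT points for Rpl28 (325 to 468 against 643 to 789), Rpl35 and Rplp2, and the Het points are the low ones for Rpsa (345 to 372).

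The stalk is formed by Rplp0 and the acidic proteins Rplp1 and Rplp2, and it recruits the elongation factors to the ribosome. Rplp2 (chr7:141447370-141451585, plus strand) had 2706, 2572 and 2128 normalized counts in WT, 1498, 2104 and 1768 in Het and 2123, 1709 and 1691 in KO. Both mutant groups lay below WT, although the nearest KO and WT animals were 2123 and 2128. Rplp0 had 2531, 2457 and 2051 in WT, 2219, 2099.8 and 1865 in Het and 2114, 1825 and 1850.0 in KO. Rplp1 had 4449, 3592 and 2652 in WT, 2882, 2800.1 and 2439 in Het and 3330.0, 2960.3 and 2690.1 in KO. For Rplp0 and Rplp1 the groups overlapped. The 3 stalk genes had a median log2 difference of -0.28 in KO against WT and -0.37 in Het against WT, 2 comparisons that share the WT animals. Their adjusted p in KO against WT ran from 0.610 to 0.700 (limma).

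By subunit, 16 of 30 genes of the 40S and 25 of 41 of the 60S were lower in KO than in WT, with median log2 differences of -0.02 and -0.08. Of the 5 paralogs with reads, 3 were higher and 2 lower. The 3 members with an unadjusted p under 0.05, among them Rpl28 and Rpl35, were all of the 60S.

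In Het against WT, 22 members were higher and 59 lower (72.8%, beside 49.5% of all genes tested), with a median log2 difference of -0.20 beside 0.01. The median kept its sign with each animal left out in turn, from -0.31 to -0.10. At an unadjusted p under 0.05, no member was higher beside 1.46% of all genes, and 3 (3.7%) were lower beside 1.89%. The latter count was 11 when WT replicate 3 was left out, 8 for Het replicate 2, 1 for WT replicate 1 or Het replicate 1 and 0 for WT replicate 2 or Het replicate 3. No member lay with all Het values above WT, beside 6.76% of all genes, and 5 members (6.17%) lay below, beside 6.49%.

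The 5 were Rplp2, Rpsa, Rpl6, Rps19bp1 and Rps26, and the gap to WT was narrow in most of them. Rpsa (chr9:120127689-120132369, plus strand), a 40S protein also known as the laminin receptor, had 542, 549 and 412 in WT, 345, 372 and 365 in Het and 499.9, 401 and 470.1 in KO. Its log2 difference of Het from WT was -0.46 (SE 0.19, adjusted p = 0.779, limma). Rpl6, a 60S protein, had 716, 838 and 661 in WT, 610.3, 609 and 494 in Het and 785, 626 and 597 in KO. Rps26, a 40S protein at the mRNA exit, had 3098, 2712 and 2372 in WT, 1845, 2366 and 2267 in Het and 2424, 2346 and 2200.3 in KO. In all 3 genes the KO animals overlapped the WT animals.

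KO against Het, which shares the Het animals with the comparison above, had 68 members higher and 13 lower (16.0%, beside 50.3% of all genes tested), with a median log2 difference of 0.13 beside -0.003 over all genes. The median was lowest, 0.02, without KO replicate 1, the library with the largest share of counts on these genes. At an unadjusted p under 0.05, 2 members (2.47%) were higher beside 1.74% of all genes, and none was lower beside 1.82%. The first count was 5 when Het replicate 1 was left out, 1 for Het replicate 2 or KO replicate 3 and 0 for Het replicate 3 or KO replicate 1. All KO values lay above all Het values for 6 members (7.41%), beside 5.12% of all genes, and below them for none, beside 4.9%.

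**Figure D5:**
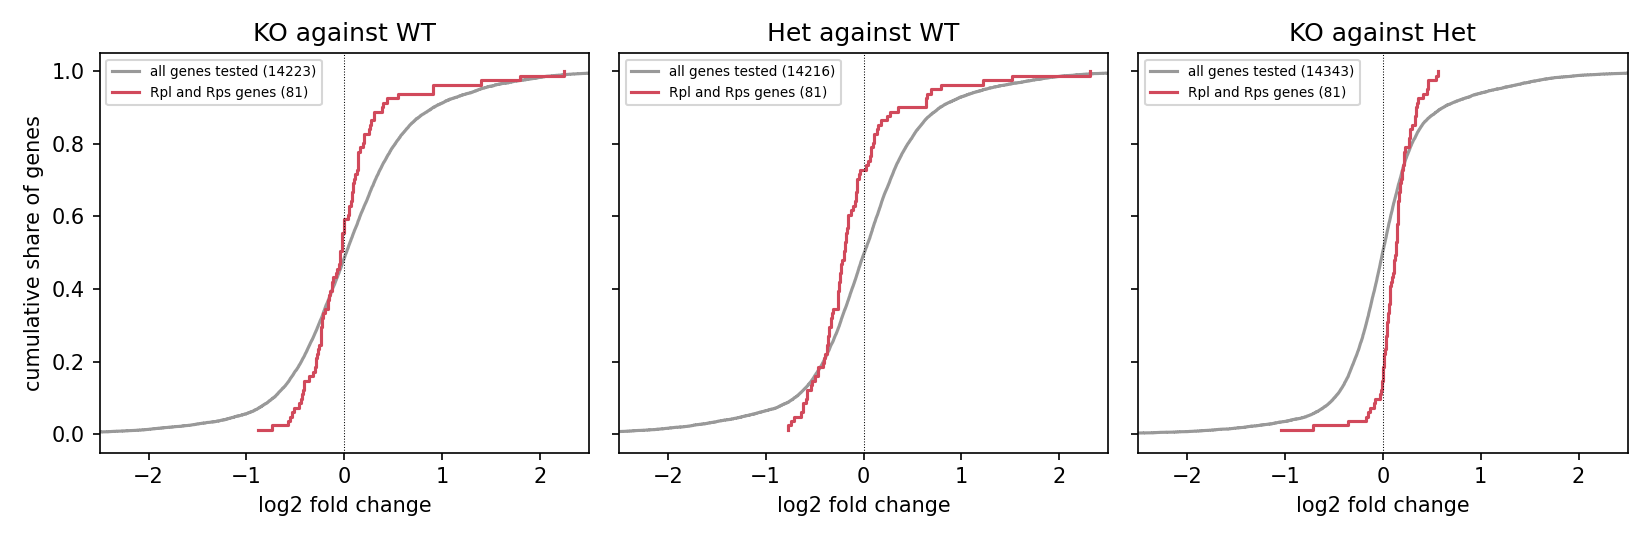
Cumulative share of genes by log2 difference in the 3 comparisons, for the 81 Rpl and Rps genes (red) and all genes tested (grey). The red curve lies left of the grey one over most of the range in Het against WT (medians -0.20 and 0.01) and right of it around 0 in KO against Het (0.13 and -0.003).

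The 6 members were Rps19bp1, Rpl10a, Rpsa, Rpl9, Rps10 and Rpl8. Rps19bp1 had 223, 157 and 136 normalized counts in WT, 135, 115 and 109 in Het and 169, 155 and 172 in KO, a log2 difference of KO from Het of 0.47 (SE 0.16, adjusted p = 0.973, limma). Rpl10a, a 60S protein at the L1 stalk, had 776, 535 and 386 in WT, 417, 411 and 441 in Het and 596, 632 and 468 in KO, a log2 difference of 0.41 (SE 0.16, adjusted p = 0.973, limma). Its WT animals spanned both of the other groups. Rpl9, of the 60S subunit, had 414, 814 and 539.7 in WT, 508, 556 and 549 in Het and 608, 667 and 597 in KO. Rps10, of the 40S head, had 1290.1, 1422 and 911 in WT, 1051, 1005 and 1057 in Het and 1307, 1088 and 1112 in KO. In these genes the Het animals were close to one another, and WT was the group with the wide spread. They were picked because KO and Het did not overlap, which favours narrow KO and Het groups and sets no limit on WT.

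Other genes of translation were read beside the members. Fau and Rack1 are ribosomal components that the prefix rule leaves out. Fau, which encodes a 40S protein fused to a ubiquitin-like protein, had 1975, 2155 and 1681 normalized counts in WT, 1013, 1644 and 1295 in Het and 1773, 1309.9 and 1515 in KO. Its log2 difference of Het from WT was -0.58 (SE 0.22, adjusted p = 0.779, limma). Rack1, a scaffold on the 40S subunit, had 993, 988 and 652 in WT, 1108, 731 and 727 in Het and 950.0, 1042 and 879 in KO.

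Of 24 translation factors, 8 were higher and 16 lower in KO than in WT, where 48.6% of all genes tested were lower, and none was called. At an unadjusted p under 0.05, 5 were lower, beside 5.03% of all genes, and none was higher, beside 3.04%. The 5 were Eif3a and Eif3b (subunits of the initiation factor eIF3), Eef1d and Eef1g (of the elongation factor eEF1B) and Eif6, which keeps free 60S subunits from joining. The first 3 of these stayed under 0.05 without WT replicate 1. Eif3a had 1366, 840.2 and 1264 in WT, 698, 1024 and 569 in Het and 622, 618 and 557 in KO, a log2 difference of KO from WT of -0.92 (SE 0.23, adjusted p = 0.604, limma). Eef1d had 3766, 2944 and 2883 in WT, 1690.3, 2739.6 and 2510.2 in Het and 2149, 1392 and 2229.8 in KO, with a log2 difference of -0.75 (SE 0.24, adjusted p = 0.610, limma). In both, each KO animal was below each WT animal, as was the case for 10.5% of all genes. In Het against WT 9 were higher and 15 lower (all genes tested: 49.5% lower), and in KO against Het 8 and 16 (all genes tested: 50.3% lower). There, 2 were higher at an unadjusted p under 0.05, Eif4a1 and Eif2s2, beside 1.74% of all genes.

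Of 26 ribosome biogenesis genes 25 were tested, and none was called with all animals. In KO against WT 11 were higher and 14 lower, in Het against WT 7 and 18, and in KO against Het 18 and 7. Of all genes tested, 48.6%, 49.5% and 50.3% were lower, respectively. Pes1, which acts in maturation of 60S rRNA, and Ubtf, a factor of rRNA gene transcription, were lower at an unadjusted p under 0.05 in KO against WT (beside 5.03% of all genes) and in Het against WT (beside 1.89%), comparisons that share the WT animals. Pes1 had 18.6, 257 and 183 in WT, 4.72, 24.2 and 12.7 in Het and 16.3, 11.6 and 12.5 in KO. WT replicate 1 lay with the mutant animals for Pes1, and the log2 difference of KO from WT was -2.77 (SE 0.96, adjusted p = 0.610, limma). Without that animal, a choice made after seeing the data, it was -3.93 (SE 0.27, adjusted p = 0.0116, limma), which passed the cutoffs. This fit leaves out the very WT animal that lay with the mutants, so it cannot stand as a call for Pes1. For Het from WT the difference without that animal was -4.12 (adjusted p = 0.519, limma). Ubtf had 53.2, 15.4 and 60.8 in WT, 10.4, 4.66 and 5.29 in Het and 5.15, 17.4 and 12.5 in KO, values that rest on few reads, and WT replicate 2 lay below KO replicate 2.

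Cell type markers were summed in the same libraries, since ribosomal protein mRNA differs between germ cell stages. Sums of 6 spermatocyte markers were 4732 to 9430 normalized counts in WT, 5087 to 9099 in Het and 5433 to 13333 in KO, and sums of 5 round spermatid markers were 3883 to 4588 in WT, 3132 to 4131 in Het and 1989 to 3248 in KO. The round and elongating spermatid sums were lower in each KO than in each WT animal. The spermatocyte sums were dominated in some animals by Ybx2, which had 11.1 to 66.7 normalized counts in 4 animals and 3959.6 to 6793 in the other 5. Summed without Ybx2, a choice made after seeing the data, the other 5 markers came to 3738 to 4838 in WT, 3874 to 6070.4 in Het and 5394 to 6539.8 in KO, higher in each KO than in each WT animal. Of the spermatocyte markers 5 were tested and 5 were higher in KO than in WT, 2 of them at an unadjusted p under 0.05 (Sycp1 and Sycp3), and none was called. Sums for spermatogonia (177 to 384 over all 9 animals), macrophages (189 to 341) and erythrocytes (853 to 1391) were small. The 6 Sertoli cell markers summed to 2485 to 3846 in WT, 2388 to 3260.1 in Het and 2254 to 5022 in KO, and the 5 Leydig cell markers to 2197 to 3604, 1575 to 2436 and 2049 to 2979, each overlapping between genotypes. Clu made up most of the Sertoli sum. Wt1 had 9.90, 17.4 and 29.0 in WT, 168, 180 and 116 in Het and 155, 199 and 32.2 in KO. At an unadjusted p under 0.05 (limma) in KO against WT, Wt1 was also higher, and Stra8, Tssk1, Tnp2 and Prm2 were lower. In Het against WT, Wt1, Sox9 and Kit were higher at that limit, and Tnp2 and Prm2 were lower. None of these was called. The part of these markers in the members' levels was not tested.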

How the data were processed

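RNA of the testes of 9 mice (3 WT, 3 Het and 3 KO) was measured by QuantSeq. The authors trimmed reads with Trim Galore 0.4.5, aligned them with HISAT2 2.1 to GRCm38, counted genes with StringTie 1.3.3 and left out pseudogenes. The deposited signal values are these counts after division by each animal's DESeq2 size factor. Whole StringTie counts, called reads here, were recovered for 100% of nonzero values (tolerance 0.001 reads), and these gave the depths. How reads matching several genes were assigned is not given in the sources used here, so members with many pseudogenes are less certain. Columns were matched to animals by title, and 0 were left unmatched.

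Genotypes were compared pairwise with limma 3.58.1 (trend) in R 4.3.3 on log2(value + 1), for genes that reached 10 in 3 or more of the animals compared, with Benjamini-Hochberg adjustment and the study's cutoffs (adjusted p under 0.05, log2 fold change over 1.5). The p-values set the difference between genotype means against the spread between these animals, with each gene's variance drawn towards a trend over all genes. Alternatives were edgeR 4.0.16 and DESeq2 1.42.0 on the recovered reads, TMM factors, pseudocounts 0.5 and 5, no filter or a filter at 50, all 9 animals in 1 fit, replicate numbers as a block and each animal left out. Leaving out WT replicate 1 for the listed genes of translation and ribosome biogenesis, and Ybx2 from the spermatocyte sum, was added after seeing the data. Fits were tested on simulated data.

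Named genes were any member called, up to 5 per direction and comparison with the smallest p among those whose groups did not overlap, the paralogs and parents, the stalk genes and the 5 highest and lowest members. Rpl8, Rpl15, Rps9, Rpl41, Rps27a and genes named for their spread were chosen after their values were seen. Some genes that the rule names are not reported here. Members and lists were chosen with earlier results of these data known. Exon lengths, coordinates and shared 50-base windows came from GENCODE M21 (GRCm38), and start windows from RefSeq (GRCm38.p6). Protein identity was computed with Biopython 1.88 from translated GENCODE coding sequences, where RefSeq proteins had been planned.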

Additional observations from a re-analysis of the deposited data

How the results depend on the processing

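No member was called with any pseudocount, filter or scaling, with all 9 animals in 1 fit, with the replicate block, with edgeR or DESeq2, or with any animal left out. Members with an unadjusted p under 0.05 numbered 3 in KO against WT (1 to 7 with an animal left out). In Het against WT they numbered 3 by limma, 7 with all 9 animals in 1 fit, 5 with the replicate block, 0 with edgeR, 1 with DESeq2 and 0 to 11 with an animal left out. In KO against Het they numbered 2, 0 with all 9 animals in 1 fit, 0 with the replicate block and 0 to 5 with an animal left out. Same-numbered animals did not deviate together in every pair (correlations of -0.140 to 0.188 over all genes), so the numbers were not taken as pairs. The summed level in KO against WT was a log2 ratio of 0.07 as a share of all counts and -0.13 as a TMM-scaled sum. The sign of some small log2 differences in KO against WT, none of them called, turned with the setting: Rpl39l was 0.0012 with edgeR, 0.0090 with DESeq2 and -0.22 to 0.28 with an animal left out, and with an animal left out Rpl10l ran from -0.47 to 0.025, Rpl10 from -0.072 to 0.89, Rpl3 from -0.24 to 0.039, Rpl36a from -0.17 to 0.29, Rps27 from -0.015 to 0.50, Rps27rt from -0.069 to 0.19 and Rps4x from -0.012 to 0.38. The cause was not tested. With 3 animals a group, only large differences could be called.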
